A study of Mus musculus with 6 samples.

Results

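The genes described here are nuclear receptors and the vitamin D hydroxylases Cyp27b1 and Cyp24a1, 47 genes named by symbol. These genes and the related lists below were chosen with earlier results of these data known. Of the 47, 46 were matched to a probe set, out of 17331 genes with a symbol on the array. The mineralocorticoid receptor Nr3c2 had no match by accession or name and was not analysed here. RNA came from MC3T3-E1, a clonal preosteoblast line from mouse calvaria, at passages 5 to 12, on 6 single-colour Cy3 arrays. The undifferentiated group (3 arrays) was kept in alpha MEM with serum and antibiotics. The differentiated group (3 arrays) had the same medium with 10 mM glycerol-2-phosphate and 50 ug/mL ascorbic acid for 15 days. All 6 cultures then received ethanol vehicle for 24 hours, so every level below is one without added vitamin D hormone. The labels call the samples biological triplicates of the 1 line, and p-values measure the spread among them.

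Nuclear receptors are transcription factors that bind DNA and are mostly switched by small lipid-soluble ligands such as steroids, thyroid hormone, retinoic acid and vitamin D. Many of them bind DNA as a pair with a retinoid X receptor, recruit corepressors without ligand and exchange these for coactivators when ligand binds. In the osteoblast lineage vitamin D, glucocorticoids, estrogens, thyroid hormone and retinoids act on matrix production and mineralization through these receptors. The active vitamin D hormone is made by the hydroxylase Cyp27b1 and degraded by the hydroxylase Cyp24a1.

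Levels are log2 intensities after quantile normalization, and a difference is always differentiated minus undifferentiated on that scale. Calls rest on limma over all 41938 entries of the array, with p-values adjusted by Benjamini-Hochberg and a threshold of 0.05. The background is the level of random-sequence probes, which read 6.73 to 6.80 on the undifferentiated and 6.69 to 6.73 on the differentiated arrays. All 8 osteoblast markers checked, Runx2 and Sp7 among them, read above it on all 6 arrays. So did 25 of 29 markers of other cell types, whose mean levels ran from 6.29 to 11.1, so a level above the random-sequence probes does not by itself show expression. For that reason no member is ranked against another by level. Of those 29 markers, Tek, Pecam1, Cdh1 and Des were called higher and Adipoq lower. The summed intensity of the 29 was 11227 to 12679 units on undifferentiated and 13565 to 15059 on differentiated arrays. The part of these markers in the results below was not tested. In bulk RNA, fewer cells of a kind and less RNA per cell cannot be told apart. Undifferentiated replicate 3 stood apart from its group, with a root mean square deviation over the members of 0.215 against 0.0849 to 0.160 on the other 5 arrays. Batches read from the scanner image names each held 1 group only, so batch and group cannot be told apart.

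Of the 46 measured members, 7 rose, 7 fell and 32 did not pass. The 7 that rose include Nr1h4, which lay below the random-sequence probes on all 6 arrays. Among all genes with a symbol, 16.8% were called, 8.67% higher and 8.16% lower, against 30.4% of the members, 15.2% in each direction. 3 members, Esr2, Nr2f2 and Thrb, were called at 2-fold or more, all lower (6.52%, against 2.65% of genes with a symbol). The median log2 difference was 0.00 over the members and 0.01 over genes with a symbol. The groups did not overlap for 19 members, or 41.3%, against 34.8% of genes with a symbol. These 19 were the 14 called members and Cyp27b1, Rarg, Thra, Rorb and Nr2e1. Rxra, Esr2, Rora, Nr4a1 and Nr2f2 kept their calls in all 20 alternative settings. Thrb also kept its call whichever array was left out. The other 8 called members lost theirs without at least 1 array, as given below.

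**Figure D1:**
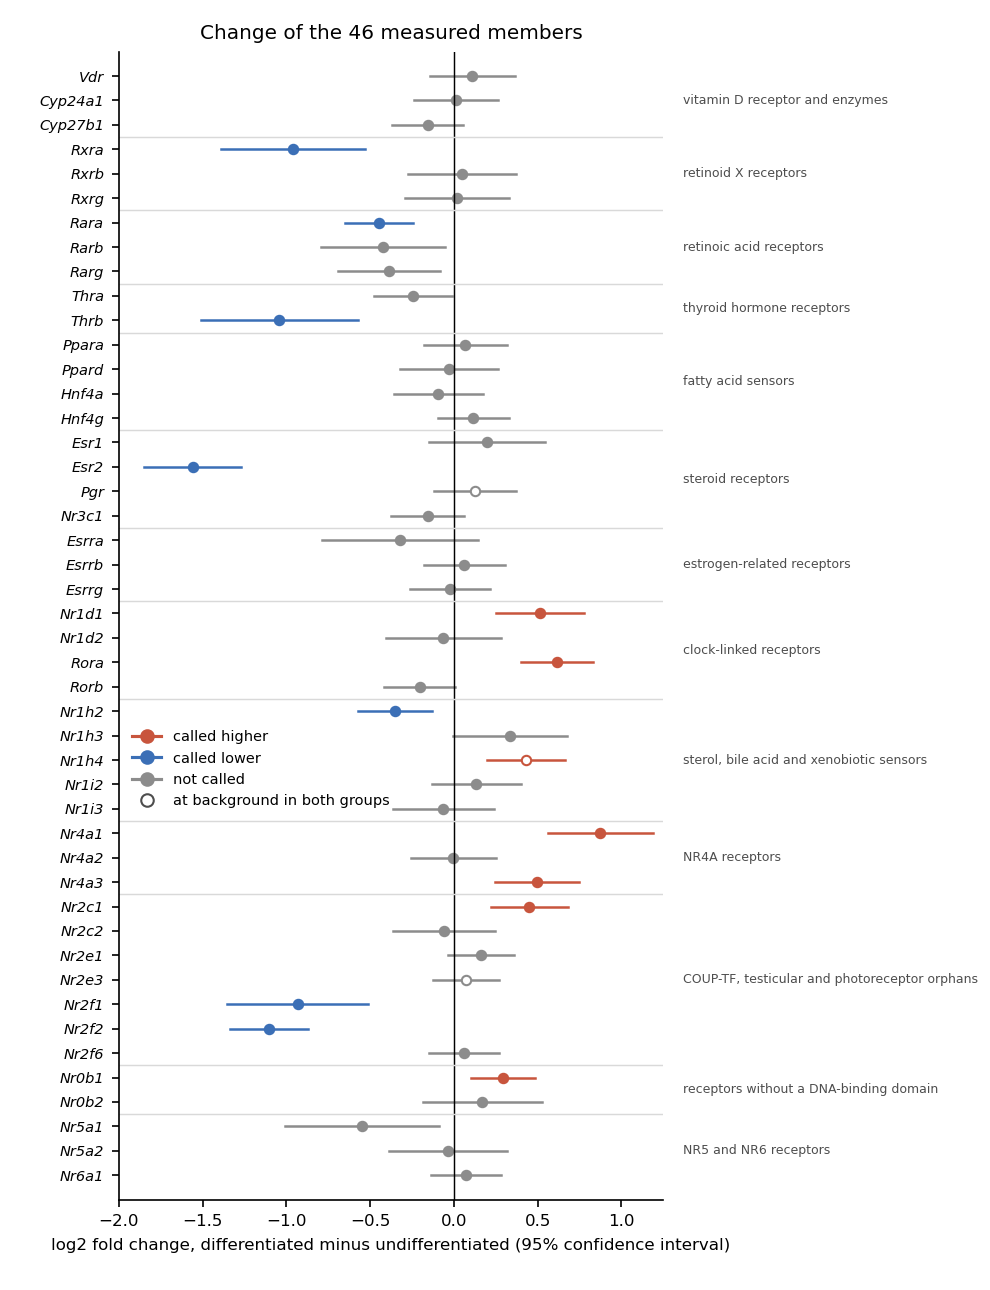
Log2 difference of the 46 measured members, differentiated minus undifferentiated, with 95% confidence intervals from limma on the horizontal axis and the members by receptor class on the vertical axis. Red marks the 7 higher, blue the 7 lower and grey the 32 members not called, and open circles mark members at or below the random-sequence probes on all arrays. Esr2 lies farthest to the left at -1.56 and Nr4a1 farthest to the right at 0.87.

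The vitamin D receptor gene and both hydroxylase genes were not called. Vdr, which encodes the receptor for the active hormone, read 10.99, 10.72 and 10.98 on the undifferentiated arrays and 10.99, 11.12 and 10.90 on the differentiated ones. The groups overlapped, and the difference was 0.11 (95% confidence interval -0.15 to 0.36). Cyp24a1, a gene that vitamin D hormone strongly induces in many tissues, read 6.78, 6.79 and 6.64 and then 6.61, 6.92 and 6.71. It was not above the random-sequence probes on any undifferentiated array and was above them on 1 differentiated array, so no fold is given. Cyp27b1 read 7.94, 7.73 and 7.79 and then 7.68, 7.68 and 7.63. All 3 differentiated arrays lay below all 3 undifferentiated ones, but the difference of -0.16 (-0.37 to 0.06) did not pass.

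Of 21 measured vitamin D supply and response genes other than these, 3 rose and 1 fell. That is 19.0% called, near the 16.8% of genes with a symbol. Pth1r, the receptor for parathyroid hormone, went from 9.10 ± 0.18 to 10.79 ± 0.06 (mean ± SD, n = 3 per group), and Bglap, which encodes osteocalcin, rose 1.75-fold. Enpp1, which makes the mineralization inhibitor pyrophosphate, rose 1.40-fold, a call that failed on removal of undifferentiated replicate 2 or any 1 differentiated array (limma adjusted p up to 0.0927). Mgp, a mineralization inhibitor of the matrix, fell by 1.13 on the log2 scale. The 25-hydroxylase gene Cyp2r1, S100g and Calb1 lay at or below the random-sequence probes on all 6 arrays.

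Retinoid X receptors are the common partner of Vdr and of the thyroid, retinoic acid and sterol receptors. Rxra fell, while Rxrb and Rxrg were not called. Rxra read 9.06, 9.51 and 9.87 on the undifferentiated and 8.65, 8.54 and 8.38 on the differentiated arrays. Every differentiated array lay below every undifferentiated one, and the undifferentiated arrays were spread more widely. The fall was 1.95-fold (log2 difference -0.96 ± 0.19 SE, limma adjusted p = 0.00984), and the adjusted p ran from 0.000722 to 0.0453 over the alternatives. Rxrb read 10.60, 10.52 and 11.002 and then 10.65, 10.71 and 10.90, a difference of 0.05 (-0.27 to 0.37). Rxrg, at 8.42, 8.57 and 8.10 and then 8.49, 8.43 and 8.23, differed by 0.02 (-0.29 to 0.33). Both of these overlapped between groups. Whether Rxra changed by more than its paralogs was not tested.

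The promoter table of RefSeq (GRCm38.p6), which gives 250 bases before and 50 after a gene's start, held 61 windows for 42 of the 47 genes. They were searched on both strands for the RUNX motifs TGTGGT and TGCGGT, the receptor half-site AGGTCA and the E-box CACGTG, and matches are in capitals in the windows below. Rxra has 2 windows in the table, and which start the cultures used was not tested. The downstream one is shown because it holds the half-site in both orientations, on the opposite strand 87 bases and on the same strand 48 bases before the start.
Rxra, chr2:27709042-27709341, plus strand: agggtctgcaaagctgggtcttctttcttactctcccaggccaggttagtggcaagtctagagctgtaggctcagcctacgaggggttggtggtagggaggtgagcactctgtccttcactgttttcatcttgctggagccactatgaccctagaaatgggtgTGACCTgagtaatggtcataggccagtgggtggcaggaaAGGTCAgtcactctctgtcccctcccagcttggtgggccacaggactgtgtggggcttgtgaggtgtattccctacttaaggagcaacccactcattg
Half-sites are where receptors of this family bind. AGGTCA was in 16.3% of all 32851 windows and in 16.4% of the member windows.

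The retinoic acid receptors Rara, Rarb and Rarg all read lower after differentiation, and Rara passed. Rara read 12.56, 12.73 and 12.64 and then 12.24, 12.17 and 12.18. The gap between the groups was larger than the range within either, and the fall was 1.36-fold (-0.45 ± 0.09 SE, limma adjusted p = 0.0112). That call failed on removal of differentiated replicate 2 (adjusted p = 0.0673). Rarg read 12.69, 12.69 and 12.60 and then 12.53, 12.27 and 12.01, without overlap, at -0.39 (-0.69 to -0.08, adjusted p = 0.0837). It passed without differentiated replicate 1 (adjusted p = 0.0371) and in 6 other settings. Rarb, itself a retinoic acid target, differed by -0.42 (-0.79 to -0.05, adjusted p = 0.116), with overlapping groups, and passed without undifferentiated replicate 2 (adjusted p = 0.0342) and in 2 other settings.

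Among 11 retinoic acid response genes, 3 rose and 1 fell, or 36.4% called, against 16.8% of genes with a symbol. Cyp26b1, which degrades retinoic acid, went from 12.12 ± 0.49 to 14.28 ± 0.02 (n = 3 per group), a 4.48-fold rise. The chemerin gene Rarres2 rose 1.78-fold and Crabp2, which carries retinoic acid to its receptors, 1.59-fold. Tgm2, a transglutaminase, fell 1.71-fold. These 4 calls held without any 1 array, while Cyp26a1, another retinoic acid hydroxylase, differed by -0.17 and was not called.

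Of the thyroid hormone receptors, Thrb fell and Thra was not called. Thrb read 9.21, 9.33 and 9.96 on the undifferentiated and 8.16, 8.59 and 8.63 on the differentiated arrays, with undifferentiated replicate 3 the highest of all. The groups did not overlap, and the fall was 2.06-fold (-1.04 ± 0.21 SE, limma adjusted p = 0.0102). Thra read 11.44, 11.41 and 11.50 and then 11.10, 11.37 and 11.15. All differentiated arrays were lower, at a difference of -0.24 (-0.48 to -0.01) that did not pass (adjusted p = 0.151).

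Of 9 measured genes that supply thyroid hormone to cells or respond to it, 4 rose and 0 fell by limma. That is 44.4% called, against 16.8% of genes with a symbol, and 0 were lower at an unadjusted p under 0.05. Dio2, the deiodinase that makes the active hormone inside cells, went from 7.38 ± 0.18 to 9.20 ± 0.19 (n = 3 per group), a 3.53-fold rise. Hr, a corepressor gene induced by thyroid hormone, rose 1.90-fold. Klf9, which also responds to glucocorticoids, rose 1.36-fold, a call that failed on removal of undifferentiated replicate 2 or differentiated replicate 2 or 3 (adjusted p up to 0.0937). The inactivating deiodinase Dio3 differed by -0.38 and was not called.

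Esr2, which encodes estrogen receptor beta, had the largest change of the measured members. It read 11.11, 10.89 and 11.37 on the undifferentiated and 9.60, 9.58 and 9.52 on the differentiated arrays. The gap between the groups was larger than the range within either. The fall was 2.95-fold (-1.56 ± 0.13 SE, limma adjusted p = 0.000115). Its promoter window is printed because it holds a RUNX motif 78 bases before the start that runs directly into an E-box 72 bases before the start, with no shared base.
Esr2, chr12:76177210-76177509, minus strand: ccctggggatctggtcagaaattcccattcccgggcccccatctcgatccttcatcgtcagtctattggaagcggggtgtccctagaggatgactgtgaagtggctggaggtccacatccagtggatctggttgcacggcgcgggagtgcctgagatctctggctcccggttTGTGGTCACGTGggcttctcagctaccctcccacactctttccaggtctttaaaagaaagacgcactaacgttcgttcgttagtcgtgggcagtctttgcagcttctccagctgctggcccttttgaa
TGTGGT was in 16.8% of all windows, against 11.5% of member windows. Counted by window, it was in 3 of 13 for the genes that fell, 2 of 7 for those that rose and 2 of 40 for those not called. TGCGGT was in 6.45% of all windows and in 0 of the 61 member windows. The E-box was in 7.15% of all and 9.84% of member windows. RUNX2 binding was not analysed here, and a match is a description of the letters only.

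The other steroid receptors were not called. Esr1, estrogen receptor alpha, read 6.55, 6.39 and 6.93 and then 6.64, 6.83 and 6.98, above the random-sequence probes on 1 undifferentiated and 2 differentiated arrays. Its difference of 0.20 (-0.15 to 0.54) did not pass, but did in 2 of the 18 alternative settings that tested it. The progesterone receptor Pgr, a classical estrogen target, lay below the random-sequence probes on all 6 arrays. Nr3c1, the glucocorticoid receptor, read 12.97, 12.79 and 13.01 and then 12.82, 12.73 and 12.76, with overlapping groups and a difference of -0.16 (-0.38 to 0.06).

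Of 18 glucocorticoid response and hydroxysteroid genes, 5 rose and 1 fell, or 33.3% called, against 16.8% of genes with a symbol. Dusp1, a phosphatase of MAP kinases, went from 9.20 ± 0.22 to 10.85 ± 0.11 (n = 3 per group), a 3.14-fold rise. Hsd11b1, the enzyme that regenerates active glucocorticoid, rose 1.88-fold, and Tsc22d3, also called GILZ, rose 1.67-fold. Per1 and Klf9 were the other 2. The metallothionein gene Mt2 fell 1.57-fold, a call that failed on removal of any 1 array but undifferentiated replicate 3 (adjusted p up to 0.134). Hsd11b2, which inactivates glucocorticoid, differed by 0.18 and was not called. Of 11 receptor chaperone genes, which fold steroid receptors into a ligand-binding state, 0 were called by limma, and 2 had an unadjusted p under 0.05, Ppid at -0.38 and Ptges3 at -0.23.

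**Figure D2:**
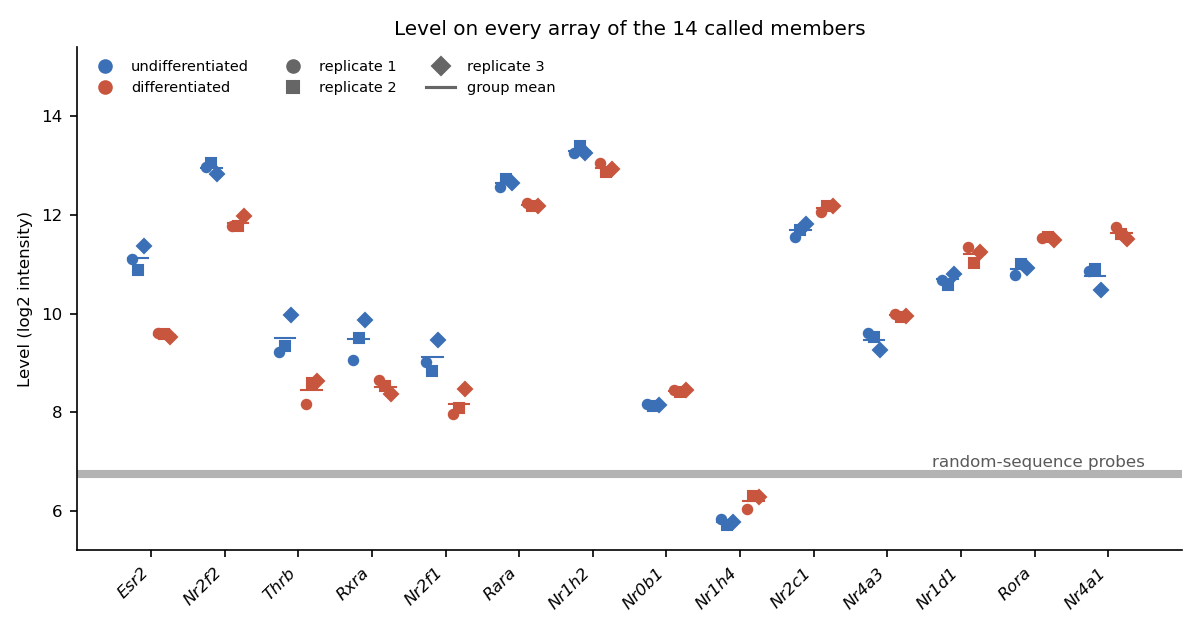
Log2 intensity (vertical axis) on each of the 6 arrays for the 14 called members, ordered by their difference, with 1 symbol per replicate and a line at each group mean. The grey band is the range of the random-sequence probes, 6.69 to 6.80. The 2 groups do not overlap for any of the 14, and Nr1h4 lies below the band on all arrays.

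COUP transcription factors are orphan receptors of mesenchymal progenitors, and Nr2f1 and Nr2f2 both fell. Nr2f2 (COUP-TFII) read 12.96, 13.04 and 12.84 on the undifferentiated and 11.78, 11.78 and 11.97 on the differentiated arrays. The groups lay far apart relative to the spread within either, and the fall was 2.15-fold (-1.11 ± 0.10 SE, limma adjusted p = 0.000223). It was the only member with a second probe set, which fell by 0.67 on the log2 scale (adjusted p = 0.00304). The 2 probe sets thus moved the same way by different amounts. Nr2f1 (COUP-TFI) read 9.03, 8.84 and 9.46 and then 7.96, 8.10 and 8.48, without overlap. Its fall was 1.91-fold (-0.93 ± 0.18 SE, limma adjusted p = 0.0102), a call that failed on removal of differentiated replicate 2 (adjusted p = 0.0532). Nr2f6, another gene of the subfamily, differed by 0.06 (-0.15 to 0.27) and was not called. The window of Nr2f2, the largest fall after Esr2, is shown for comparison and holds none of the 4 motifs.
Nr2f2, chr7:70366697-70366996, minus strand: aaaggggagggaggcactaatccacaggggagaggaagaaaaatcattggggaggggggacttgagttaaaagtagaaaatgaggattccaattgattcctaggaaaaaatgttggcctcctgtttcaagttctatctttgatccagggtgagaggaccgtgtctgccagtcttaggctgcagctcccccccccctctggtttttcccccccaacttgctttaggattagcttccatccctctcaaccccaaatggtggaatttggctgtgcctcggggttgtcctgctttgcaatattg

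The testicular receptors Nr2c1 and Nr2c2 repress half-site genes and compete with retinoid receptors. Nr2c1 read 11.56, 11.70 and 11.80 and then 12.05, 12.17 and 12.19, a rise of 1.37-fold (0.45 ± 0.10 SE, limma adjusted p = 0.0175). That call failed on removal of undifferentiated replicate 1 (adjusted p = 0.0613) or differentiated replicate 2 (0.0910) or 3 (0.0600), and with the deposited values (0.0668) or median centring (0.0982). Nr2c2 differed by -0.06 (-0.36 to 0.24). Nr2e1, a receptor of neural stem cells, read 7.34, 7.35 and 7.33 and then 7.52, 7.44 and 7.56, a difference of 0.16 that did not pass. The photoreceptor gene Nr2e3 lay below the random-sequence probes on all 6 arrays.

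Rora and Nr1d1, which act against each other on the same response elements in the circadian clock, both rose. Rora, an activator of clock genes, read 10.79, 11.01 and 10.92 and then 11.53, 11.55 and 11.49. The differentiated arrays lay close together and above every undifferentiated one, and the rise was 1.53-fold (0.62 ± 0.09 SE, limma adjusted p = 0.00306). Nr1d1 (REV-ERB alpha), a repressor, read 10.68, 10.59 and 10.81 and then 11.35, 11.02 and 11.25, without overlap. Its rise was 1.43-fold (0.51 ± 0.12 SE, limma adjusted p = 0.0177). That call failed on removal of undifferentiated replicate 1 or 2 or differentiated replicate 1 or 3 (adjusted p of 0.0582 to 0.0701).

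Nr1d2 (REV-ERB beta) read 9.76, 9.48 and 9.97 and then 9.44, 9.81 and 9.78, with overlap and a difference of -0.06 (-0.41 to 0.28). Rorb differed by -0.20 (-0.42 to 0.01), with no overlap and no call. The Rora window, shown as that of a member which rose in every setting, holds none of the motifs.
Rora, chr9:68653536-68653835, plus strand: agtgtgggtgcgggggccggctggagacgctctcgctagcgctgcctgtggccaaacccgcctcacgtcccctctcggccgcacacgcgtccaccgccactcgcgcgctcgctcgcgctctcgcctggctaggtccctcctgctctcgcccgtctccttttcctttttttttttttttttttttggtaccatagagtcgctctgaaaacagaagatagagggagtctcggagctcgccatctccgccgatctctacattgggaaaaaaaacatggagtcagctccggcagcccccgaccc
Of 18 clock genes, 4 rose and 0 were called lower by limma, with 3 lower at an unadjusted p under 0.05. That is 22.2% called, against 16.8% of genes with a symbol. The repressor gene Bhlhe41 went from 10.57 ± 0.19 to 11.42 ± 0.31 (n = 3 per group), a 1.81-fold rise that held without any 1 array. Ciart, a repressor of the clock, rose 1.38-fold, Per1 1.32-fold and the kinase gene Csnk1e 1.30-fold. Ciart lost its call on removal of differentiated replicate 2 (adjusted p = 0.0535), Per1 without differentiated replicate 1 or 2 (up to 0.106), and Csnk1e without any 1 array but undifferentiated replicate 3 (up to 0.125). The core activators Clock and Arntl differed by -0.34 and -0.28 and were not called. The sources used here give no time of day for the RNA isolation.

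The NR4A receptors are immediate early genes that act without a known natural ligand and answer parathyroid hormone and cAMP in osteoblasts. Nr4a1 read 10.87, 10.91 and 10.47 and then 11.76, 11.62 and 11.50, a rise of 1.83-fold (0.87 ± 0.14 SE, limma adjusted p = 0.00347). Nr4a3 read 9.61, 9.53 and 9.26 and then 10.00, 9.94 and 9.96, a rise of 1.41-fold (0.49 ± 0.11 SE, limma adjusted p = 0.0169). The groups were separate for both, with undifferentiated replicate 3 the lowest array each time. The Nr4a3 call failed on removal of differentiated replicate 1 (adjusted p = 0.0638) or 2 (0.0709). Nr4a2 read 10.53, 10.60 and 10.26 and then 10.54, 10.43 and 10.42, and its group means were equal to 2 decimals (-0.26 to 0.25). The Nr4a1 window is shown as that of the largest rise and holds none of the motifs.
Nr4a1, chr15:101266596-101266895, plus strand: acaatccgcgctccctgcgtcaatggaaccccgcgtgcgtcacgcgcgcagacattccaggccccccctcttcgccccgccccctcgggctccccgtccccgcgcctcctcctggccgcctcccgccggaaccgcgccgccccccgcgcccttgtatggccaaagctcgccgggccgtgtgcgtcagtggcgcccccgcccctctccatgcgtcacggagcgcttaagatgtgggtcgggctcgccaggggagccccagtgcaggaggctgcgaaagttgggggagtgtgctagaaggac

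**Figure D3:**
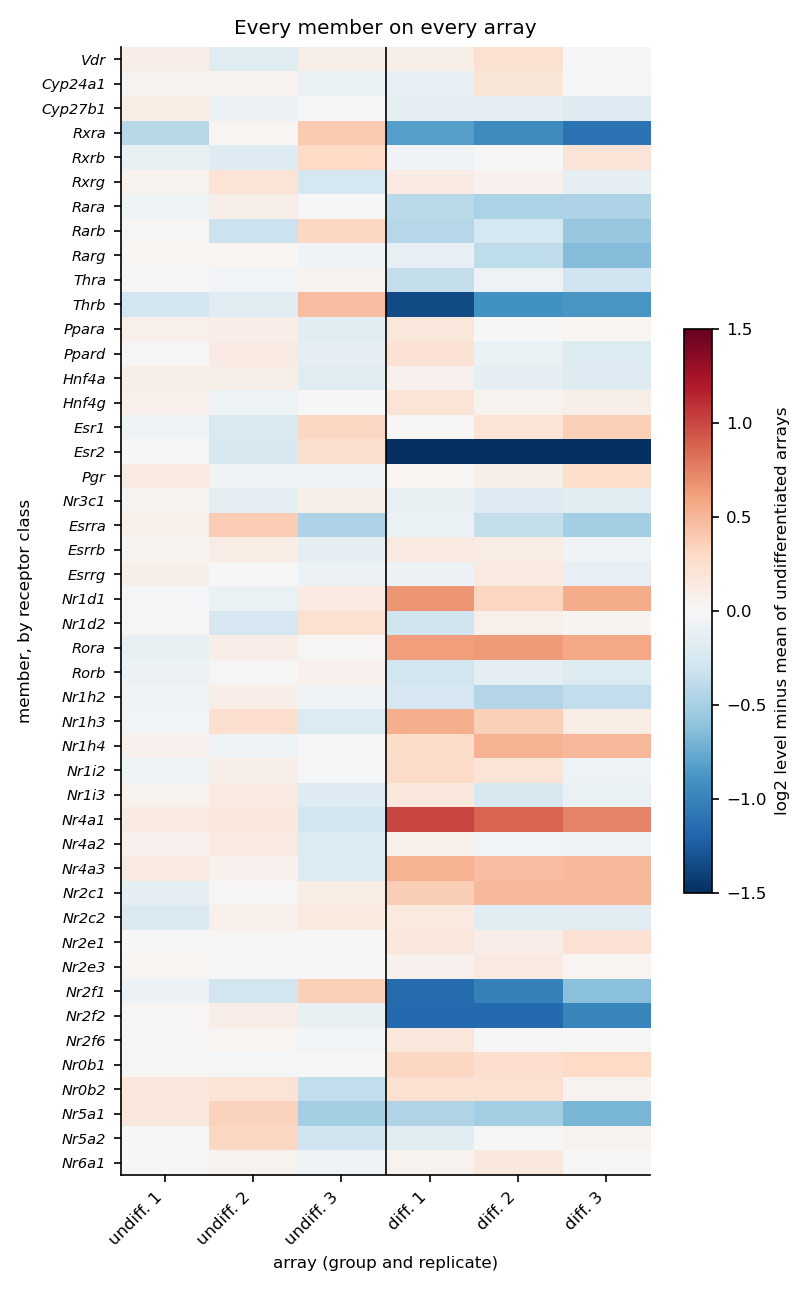
Colour shows the log2 level of each measured member (rows, by receptor class) on each array (columns) minus the mean of the 3 undifferentiated arrays. Blue marks levels below that mean, as for Esr2, Nr2f2, Rxra, Thrb and Nr2f1 on all 3 differentiated arrays. Undifferentiated replicate 3 was the array of its group farthest from the group median for 25 of 46 members.

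The sterol, bile acid and xenobiotic receptors gave 1 call in each direction. Nr1h2 (LXR beta), a sensor of oxidised cholesterol, read 13.25, 13.40 and 13.25 and then 13.05, 12.86 and 12.92, a fall of 1.28-fold (-0.35 ± 0.10 SE, limma adjusted p = 0.0393). That call held only without undifferentiated replicate 3 among the 6 settings that leave out 1 array, and otherwise the adjusted p was 0.0594 to 0.177. Nr1h3 (LXR alpha) read 9.06, 9.35 and 8.90 and then 9.65, 9.46 and 9.21, with overlap, at 0.34 (-0.00 to 0.68, adjusted p = 0.171), and passed in 2 of the 20 alternative settings.

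Nr1h4, the bile acid receptor FXR, read 5.84, 5.72 and 5.77 and then 6.05, 6.30 and 6.28. It passed as higher (limma adjusted p = 0.0218), but all 6 arrays lay below the random-sequence probes, so no size of change is given. The call ended with an offset of 50 units before the log (adjusted p = 0.0710). It also failed on removal of undifferentiated replicate 2 or differentiated replicate 2 or 3 (adjusted p of 0.0666 to 0.114). The xenobiotic receptors Nr1i2 and Nr1i3 differed by 0.13 and -0.06 and were not called.

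Of 9 LXR response genes, 1 rose and 1 fell, or 22.2% called, near the 16.8% of genes with a symbol. Abca1, the cholesterol exporter, went from 6.94 ± 0.14, close to the random-sequence probes, to 9.33 ± 0.30 (n = 3 per group). That is a 5.24-fold rise from a starting level near background. Srebf1, a regulator of lipid synthesis, fell 1.31-fold, a call that failed on removal of undifferentiated replicate 2 or any 1 differentiated array (adjusted p up to 0.140). Abcg1, another LXR target and sterol exporter, differed by -0.07 and was not called.

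None of the fatty acid sensors was called. Ppara and Ppard, which regulate fatty acid oxidation, differed by 0.07 (-0.18 to 0.31) and -0.03 (-0.32 to 0.27), and Hnf4a and Hnf4g by -0.09 and 0.12. Of 16 genes that respond to PPARs, 4 rose and 0 were called lower by limma, with 2 lower at an unadjusted p under 0.05. That is 25.0% called, against 16.8% of genes with a symbol. The fatty acid binding protein gene Fabp3 rose 2.00-fold, from 8.96 ± 0.26 to 9.96 ± 0.24 (n = 3 per group). Cpt1a, which admits fatty acids to mitochondria, rose 1.41-fold and the lipid droplet gene Plin2 1.38-fold. The calls of Cpt1a and Plin2 were each lost in 3 of the 6 settings that leave out 1 array, with undifferentiated replicate 1 or differentiated replicate 2 or 3 for Cpt1a (adjusted p up to 0.0730) and undifferentiated replicate 1 or differentiated replicate 1 or 2 for Plin2 (up to 0.129).

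Esrra, an estrogen-related receptor that drives mitochondrial genes, read lower on average (-0.32, -0.78 to 0.14) with overlapping groups. With undifferentiated replicate 3 removed it passed, at -0.55 (adjusted p = 0.0194), and it passed in 2 settings that kept all 6 arrays. Esrrb differed by 0.06, and Esrrg lay above the random-sequence probes on 1 of 6 arrays. Nr5a1 (SF-1), the regulator of steroid-making genes, read 9.54, 9.70 and 8.85 and then 8.92, 8.85 and 8.68. Undifferentiated replicate 3 lay within the differentiated range there, and the difference of -0.55 (-1.01 to -0.09) did not pass (adjusted p = 0.102). Without that array it was -0.80 (adjusted p = 0.000901). It also passed in 4 settings that kept all 6 arrays, among them array weights (0.000666) and the replicate block (0.0181). Nr5a2 and Nr6a1 differed by -0.03 and 0.07.

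Nr0b1 (DAX1), a repressor without the usual DNA-binding domain, read 8.17, 8.14 and 8.15 and then 8.46, 8.41 and 8.45. The rise was 1.22-fold (0.29 ± 0.08 SE, limma adjusted p = 0.0463), with both groups tight. The call failed on removal of any 1 array (adjusted p of 0.0519 to 0.147) and in 6 other settings at the same threshold, median centring (0.0943) among them. Nr0b2 (SHP), its relative, differed by 0.17 (-0.19 to 0.53).

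Coregulators carry out the action of all these receptors. Of 29 measured corepressor and coactivator genes, 5 rose and 4 fell, or 31.0% called, against 16.8% of genes with a symbol. Ppargc1a, the inducible coactivator of PPARs and estrogen-related receptors, rose 2.88-fold, from 8.64 ± 0.03 to 10.16 ± 0.43 (n = 3 per group). Tbl1xr1, a subunit of the corepressor complex, rose 1.60-fold, a call that failed on removal of differentiated replicate 2 (adjusted p = 0.0669). The acetyltransferase Ep300 fell 1.56-fold and the arginine methyltransferase Prmt1 1.59-fold. Neither the corepressor Ncor1 nor the p160 coactivators Ncoa1, Ncoa2 and Ncoa3 were called, with differences from -0.41 to 0.15.

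**Figure D4:**
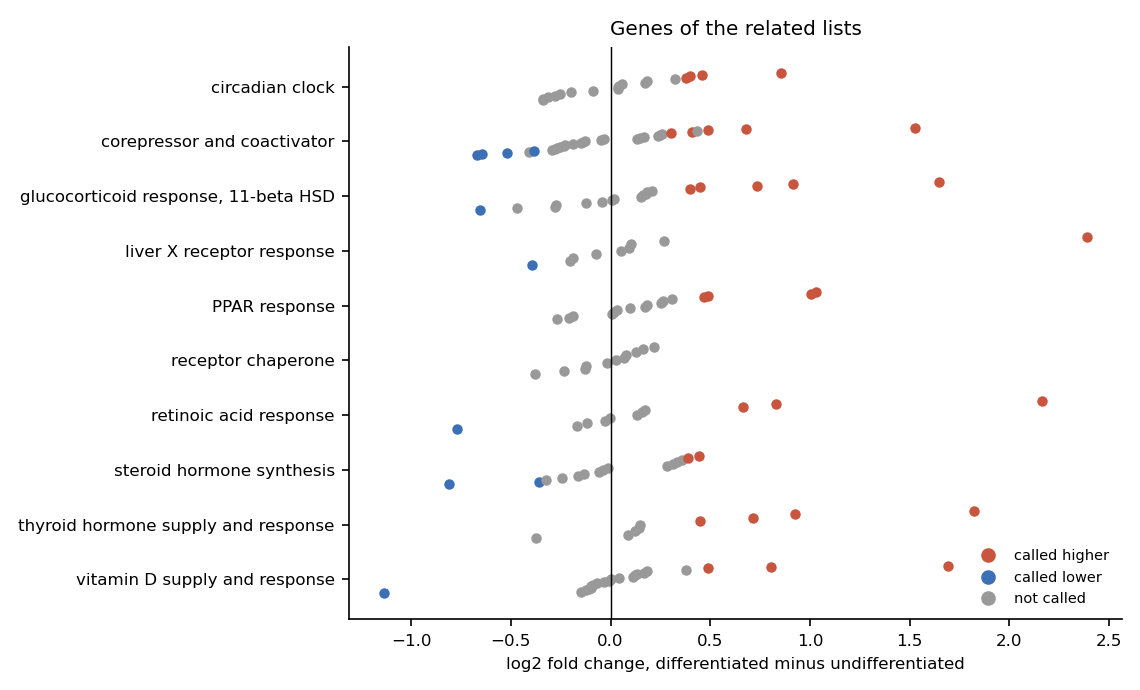
Log2 difference (horizontal axis) of each measured gene in 10 related lists (vertical axis), 1 point per gene, red where called higher, blue where called lower and grey where not called. Abca1 lies at 2.39 and Cyp26b1 at 2.16, and the receptor chaperone genes have no coloured point.

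The 32 members not called had differences from -0.55 to 0.34. For 31 of them the 95% confidence interval lay within 1 log2 unit of 0 on both sides, and for 25 within 0.5. An unadjusted p under 0.05 was met by 18 of the 46 members (39.1%), against 29.3% of genes with a symbol. Of these 18, 14 were the called members, and the other 4, Rarb, Rarg, Thra and Nr5a1, all read lower after differentiation.

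**Figure D5:**
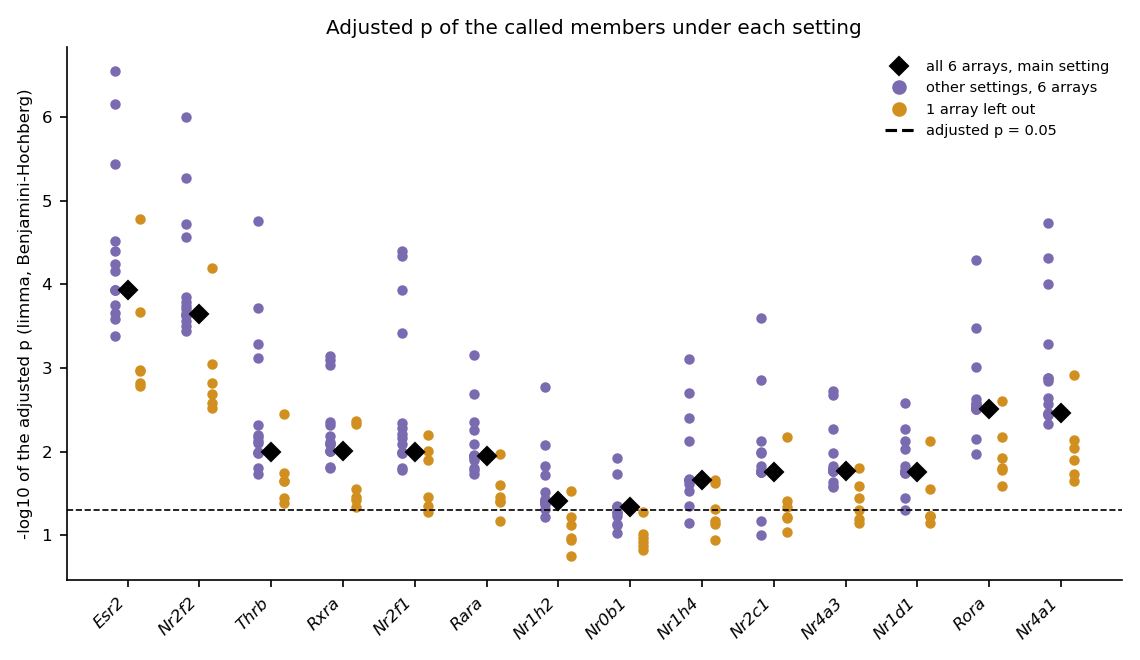
Minus log10 of the limma adjusted p (vertical axis) of the 14 called members (horizontal axis, ordered by difference) in the main setting, with the other settings on all 6 arrays, and with 1 array left out. The dashed line is an adjusted p of 0.05, and all points of Esr2, Nr2f2, Thrb, Rxra, Rora and Nr4a1 lie above it.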

How the data were processed

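The values are intensities that the authors deposited for single-colour Cy3 arrays, made with RMA per the submitters' processing notes, with version and settings not given in the sources used here. Tables gave 1 intensity per probe set on a linear scale. The deposited intensities still differed in distribution between arrays, so log2 values were quantile normalized here. Before that step, the median gap between the sorted log2 values of a pair of arrays was at most 0.135. Probe sets were named by transcript accession through RefSeq, and a gene with several took the one with the highest mean. Nr3c2 had no match and was not analysed here, nor were the cultures given vitamin D hormone.

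The 3 differentiated and 3 undifferentiated arrays were compared with limma 3.58.1 (R 4.3.3, lmFit and eBayes) over 41938 entries, with Benjamini-Hochberg adjustment. Fold changes and 95% confidence intervals come from that fit, and the number of arrays limits the precision. Every member is described. From each related list the called genes of largest absolute change were named, up to 4, or up to 2 where none was called; other genes of the lists that are named as not called were chosen after their values were seen. Some genes counted in the lists are not reported here by name. The members and lists were chosen with earlier results of these data known. In data simulated for this comparison, with 200 of 41938 entries changed, 63% of log2 changes of 1 and 7% of changes of 0.5 were recovered, with 0 false among 70 calls; far fewer entries changed there than were called in the real data, so these shares do not carry over. The 20 alternatives covered normalization, filters, probe set rules, variance settings, the threshold, a replicate block and leaving out each array, 2 of them added after seeing the data. The main comparison had no block, since the labels give no factor but the group. Same-numbered arrays did not all deviate together, with correlations of 0.33, -0.14 and 0.46 by the labels' numbers. By the numbers of the series' value table they were -0.01, 0.43 and 0.46. The series' value table held the values of differentiated replicates 1 and 2 under each other's names, which leaves the groups unaffected. Promoter windows are RefSeq's, on GRCm38.p6.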

Additional observations from a re-analysis of the deposited data

How the results depend on the processing

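No member changed direction among those called, and of 903 member values under the alternatives 837 stayed on the same side of the threshold, 44 lost a call and 22 gained one. Leaving out 1 array at a time gave 3 to 6 members higher, 4 to 9 lower and 2 to 4 changed at least 2-fold, against 7, 7 and 3 with all arrays. The lowest counts came without differentiated replicate 2 (3 higher, 4 lower) and differentiated replicate 3 (3 higher, 6 lower), and the most lower calls, 9, came without undifferentiated replicate 3; each of these settings had 5 arrays, and the cause of their differences was not tested. An adjusted p under 0.01 left 2 higher and 3 lower. Adding the arrays' interquartile range as a covariate, a choice made after seeing the data, gave 11 lower, and the cause was not tested. With a replicate block by the labels' numbers, 6 were higher and 9 lower, and with the series table's numbers, 8 and 10. The numbers do not show that the arrays are paired. The share of all entries called ran from 7.49% to 37.8% over the alternatives. The number of arrays, 3 a group, limits the precision.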

Other observations

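Pparg, a nuclear receptor outside the set above and the regulator of fat cell formation, went from 8.84 ± 0.22 to 9.17 ± 0.08 (mean ± SD, n = 3 per group). The difference of 0.34 (limma adjusted p = 0.0978) was not called. Nr1h5 lay at or below the random-sequence probes on all 6 arrays.

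Of 15 steroid hormone synthesis genes, 2 rose and 2 fell, or 26.7% called, against 16.8% of genes with a symbol. Cyp17a1, which makes androgen precursors, rose 1.36-fold, a call that failed on removal of differentiated replicate 2 (limma adjusted p = 0.0721). Stard4, a cholesterol carrier, fell 1.75-fold from a spread-out undifferentiated group (8.71 ± 0.51 to 7.90 ± 0.04, n = 3 per group). Its call failed on removal of undifferentiated replicate 1 or any 1 differentiated array (adjusted p up to 0.122). Hsd17b4 rose 1.31-fold and Hsd17b10 fell 1.28-fold, with calls lost in 4 and 5 of the 6 settings that leave out 1 array (adjusted p up to 0.105 and 0.158). For Hsd17b4 these were undifferentiated replicates 1 and 2 and differentiated replicates 2 and 3, and for Hsd17b10 every array but undifferentiated replicate 3. Cyp19a1, the aromatase that makes estrogen, differed by 0.33 and was not called (adjusted p = 0.0774).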
